A study of Drosophila melanogaster with 20 samples.

Results

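Cytochrome P450 genes were followed in libraries labelled as brain, from Drosophila melanogaster kept on a low-protein or a high-protein diet. The members were all genes whose symbol is Cyp followed by a number, lower-case letters and a number, and 78 of the 12441 genes in the deposited tables met this rule, 77 of them in the male table and 77 in the female table. By family number they were sorted into the 4 clans known in insects, with 3 genes in the CYP2 clan, 37 in the CYP3 clan, 31 in the CYP4 clan and 7 in the mitochondrial clan. Total RNA of W1118 flies, the stock of all groups, aged 4 to 7 days was sequenced in 20 libraries, 5 for each sex and diet. Males ate food low in protein and high in carbohydrate (LPHC, protein to carbohydrate 0:1, 180 g/L) or food high in protein and low in carbohydrate (HPLC, 1:1, 180 g/L). The female diets were LPHC at 1:2 and 360 g/L and HPLC at 1:1 and 90 g/L, so the female LPHC food still held protein, and sex and diet recipe cannot be told apart. The comparison asked what differs between the diets on which flies slept longest, LPHC, and shortest, HPLC.

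P450 enzymes are haem proteins that use electrons from NADPH to insert oxygen into small molecules. Those of the CYP2, CYP3 and CYP4 clans sit in the endoplasmic reticulum and draw electrons from P450 reductase and cytochrome b5, while those of the mitochondrial clan draw them from adrenodoxin-like ferredoxins. Genes of the CYP3 clan and of parts of the CYP4 clan are best known for clearing plant toxins and insecticides in gut, fat body and Malpighian tubule, whereas several CYP2 and mitochondrial genes act in hormone and cuticle biology. In the fly head, fat body lies close to the brain and glia form its barrier, and both are known to express P450 genes.

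All levels are normalised values, in which the authors had divided the counts of a library by its size factor, and each sex was scaled in its own table. Recovered depth was 13901684 to 35077559 reads per library. Whether the 5 libraries of a group stem from separate cultures is not stated, so the p-values rest on a spread that may be technical. A gene was tested if 5 or more libraries of its table had a value of at least 10. This left 70 members in males and 68 in females, 67 of them in both. In males Cyp310a1, Cyp6a16, Cyp6a18, Cyp313a3, Cyp313a5, Cyp4ad1 and Cyp4d14 were below it, with no library above a value of 20.9. In females Cyp310a1, Cyp6a16, Cyp313a2, Cyp313a3, Cyp313a5, Cyp4ae1, Cyp4d14, Cyp4d21 and Cyp4g1 were below it, with no library above 13.98. Of the members tested, Cyp304a1 was the one that passed through a single diet, since all its male LPHC values were below 10.

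In males the family took a smaller share of all reads on LPHC than on HPLC. The 5 HPLC libraries held 0.766%, 0.708%, 0.756%, 0.747% and 0.686% of their reads in P450 genes, and the LPHC libraries held 0.181% to 0.217%. The means were 0.733% ± 0.0339 on HPLC and 0.199% ± 0.0169 on LPHC (SD, n = 5), and the groups did not overlap. In females the share was 0.807% to 1.08% on HPLC and 0.757% to 0.858% on LPHC, and the groups overlapped because HPLC replicate 4 was below LPHC replicate 4. Without Cyp4e3, described below, the female shares were 0.804% to 1.08% and 0.653% to 0.726%, which did not overlap.

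**Figure D1:**
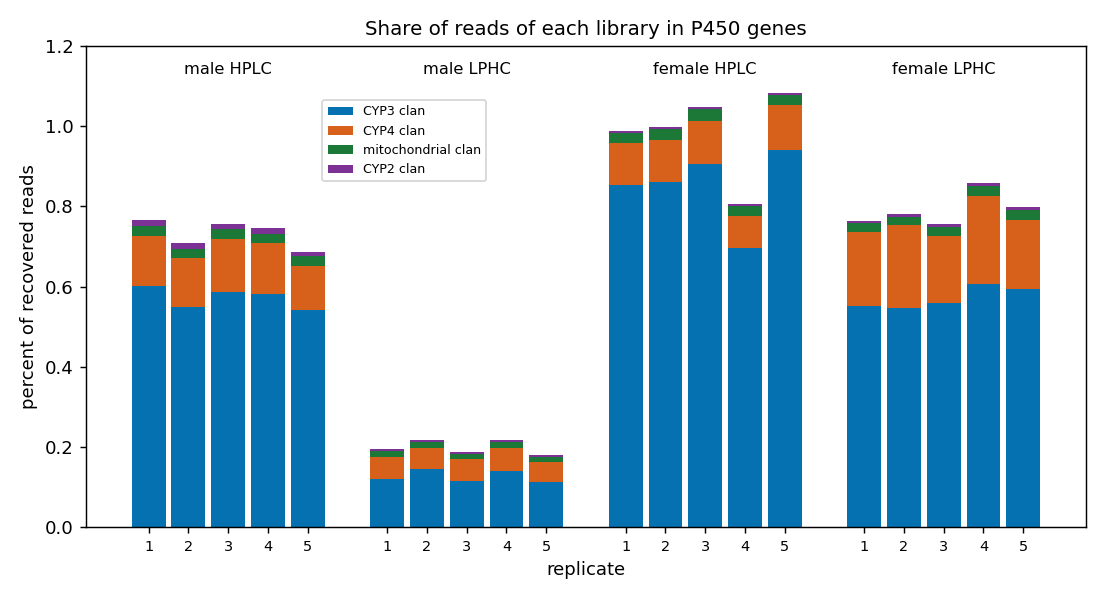
Percent of each library's recovered reads that fell in P450 genes, stacked by clan, for the 5 replicates of each sex and diet. The male LPHC bars reach 0.181% to 0.217% and lie below all male HPLC bars, while in females the CYP3 part is smaller and the CYP4 part, which includes Cyp4e3, larger on LPHC.

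The clans did not take equal parts in these changes. The CYP3 clan went from 0.573% ± 0.0247 to 0.127% ± 0.0151 of reads in males and from 0.851% ± 0.0931 to 0.571% ± 0.0269 in females. The CYP4 clan went from 0.123% ± 0.00864 to 0.0535% ± 0.00230 in males, but from 0.101% ± 0.0131 to 0.190% ± 0.0227 in females. The female rise of the clan came from Cyp4e3. Without this gene the female CYP4 share was 0.0974% ± 0.0125 on HPLC and 0.0819% ± 0.00514 on LPHC, with overlapping ranges of 0.0760% to 0.108% and 0.0745% to 0.0882%. Within the family, the CYP3 clan thus held 78.2% ± 0.614 of P450 reads on HPLC and 63.8% ± 2.25 on LPHC in males, and 86.4% ± 0.217 and 72.2% ± 1.98 in females. Cyp6g1, Cyp6w1 and Cyp6d5 alone held 45.2% ± 0.714 of the P450 reads of males on HPLC and 17.7% ± 2.68 on LPHC, and 61.0% ± 0.925 and 44.3% ± 1.60 in females (all SD, n = 5).

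Per kilobase of coding sequence the same genes led in both tables. In males Cyp6d5 had a mean level of 10840 per kilobase over both diets, Cyp6g1 10140 and Cyp6w1 9444, followed by Cyp28d1 at 4614, Cyp4e2 at 4146 and Cyp313a1 at 2924. On male HPLC the levels per kilobase of Cyp6d5, Cyp6g1 and Cyp6w1 were 19560 ± 2268, 18800 ± 884 and 17420 ± 1689, so neighbours in this order did not differ beyond their SD. In females Cyp6w1 led with 26220 per kilobase, before Cyp6d5 at 22430, Cyp6g1 at 19560, Cyp28d1 at 8638 and Cyp4e3 at 7330. The place of Cyp4e3 came from LPHC, where its level per kilobase was 14080 ± 2730 against 583 ± 204 on HPLC.

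Tested gene by gene (limma on log2(value + 1), Benjamini-Hochberg adjusted over all genes, threshold 0.05), 51 of 70 members were lower and 3 higher on LPHC in males. Among all 10115 genes tested in males 57.2% were called, 29.6% as lower and 27.6% as higher. A fall of at least 2-fold was called for 29 members, against 9.39% of all genes, while none of the 3 rises reached 2-fold, against 1.32% of all genes, and for 42 members the groups did not overlap, against 42.7% of all genes. Cyp304a1, which passed the male filter through HPLC alone, is counted in the 51, the 29 and the 42. The median log2 difference, LPHC minus HPLC, was -0.83 over the members and 0.02 over all genes. In females 23 of 68 members were lower and 9 higher, while 36 were not called, against 31.5% of all 9932 genes called, 14.8% as lower and 16.7% as higher. Falls of at least 2-fold were called for 10 female members and rises of that size for 4, against 1.61% and 3.85% of all genes, and the groups did not overlap for 25 members, against 22.1%. The female median was -0.09, against -0.02 over all genes, but 0.08 when libraries were scaled to the same total.

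That scaling moved the median difference of all genes by 0.25 in males and 0.16 in females on the log2 scale. Scaling to the same upper quartile moved it by 0.17 in males and 0.02 in females. At the same total 8 male members were higher and 42 lower, and 21 female members were higher and 19 lower. More male members were lower than higher with both scalings, whereas the female split between rises and falls changed sides at the same total. At the same upper quartile 31 female members were called. Of these, 30 were shared with the 32 calls of the main test, all in the same direction.

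**Figure D2:**
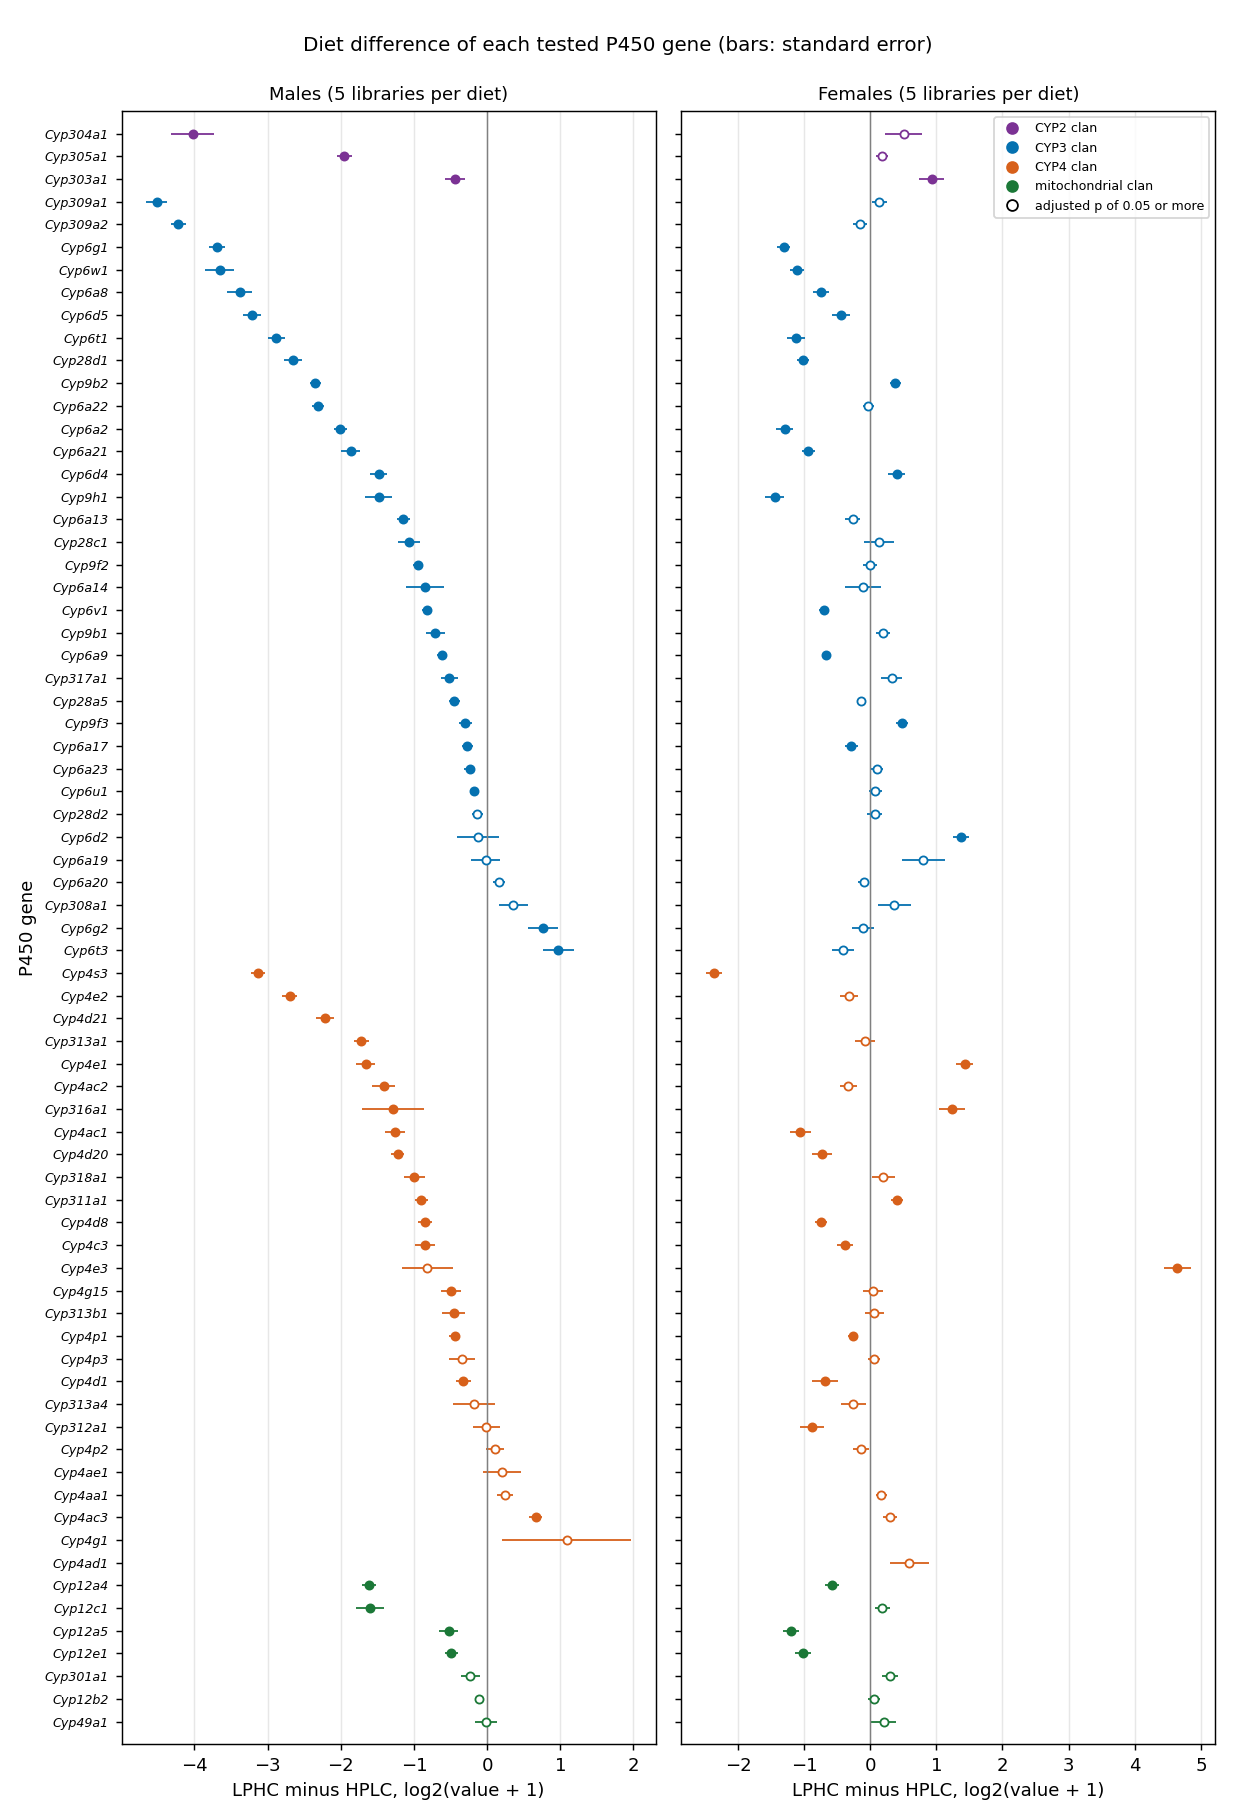
Log2 difference between diets (LPHC minus HPLC, on log2(value + 1)) with its standard error for each tested P450 gene, males on the left and females on the right, coloured by clan, with open points for an adjusted p of 0.05 or more. Most male points lie to the left of 0, down to -4.52 for Cyp309a1, whereas female points lie on both sides and Cyp4e3 stands at 4.65.

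Markers of other cell types differed between the diets as well. Their counts below stand against 29.6% of all genes called lower and 27.6% higher in males, and 14.8% and 16.7% in females. In males 5 of 6 tested fat body markers were lower on LPHC, their summed share of reads was 0.724% to 0.809% on HPLC and 0.130% to 0.230% on LPHC, and the storage protein gene Lsp2 was at 0 to 2.42 in the LPHC libraries after 12311 to 16467 on HPLC. In females 3 of 6 were lower and Lsp1beta was higher, with a summed share of 4.75% to 5.46% on HPLC and 3.61% to 4.26% on LPHC. Female Lsp2 was at 28307 to 39077 on HPLC and 23692 to 34285 on LPHC. All 8 glial markers were lower in males (summed share 0.151% to 0.171% and 0.116% to 0.125%), whereas 5 of 8 were higher and 1 lower in females (0.0941% to 0.111% and 0.131% to 0.140%). Of 6 oenocyte markers listed, DesatF and CG10097 were in neither table, and eloF was in that of males alone, at 0 to 3.23. Cyp4g1, a P450 gene of oenocytes, was nearly absent too, as given below. Of 3 oenocyte markers tested in females CG18609 (log2 3.26 ± 0.56, limma, adjusted p = 0.00040) and FASN2 (1.29 ± 0.11) were higher and FarO was not called. Their summed share was 0.00383% to 0.00559% on HPLC and 0.00577% to 0.00927% on LPHC, without overlap. Of 2 tested in males FASN2 was lower (-2.92 ± 0.22) and FarO was not called, with overlapping sums of 0.00345% to 0.00458% and 0.00314% to 0.00436%. Neuronal markers summed to 0.412% to 0.432% and 0.494% to 0.621% in males and to 0.172% to 0.234% and 0.193% to 0.252% in females. Of 6 muscle markers 5 were higher in males, with sums of 0.1841% to 0.2285% on HPLC and 0.3496% to 0.4398% on LPHC. In females 5 were lower, with sums of 0.1353% to 0.1663% and 0.1136% to 0.1407%. Of 5 haemocyte markers 4 were lower in males and 1 higher in females. Of 8 photoreceptor markers 1 was higher and 2 lower in males, with sums of 4.677% to 5.065% and 4.777% to 5.553%, the largest male sums of these lists. In females 5 were higher, with sums of 1.885% to 3.089% and 2.978% to 3.639%. The part of these cell types in the P450 differences was not tested, and in bulk tissue fewer cells of a type and less RNA per cell cannot be told apart. Fat body and photoreceptor markers were thus read in libraries labelled as brain. P450 levels here may therefore not be those of brain cells alone. The fat body markers did not differ by one size. In males Lsp2 differed by -12.9 and apolpp by -2.08 on the log2 scale and Yp1 was not called. In females Lsp2 and Lsp1alpha were not called, and Yp1 made up 64.7% to 73.1% of the summed reads. Less fat body RNA and a change of these genes within fat body cannot be told apart.

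Of the 3 genes of the CYP2 clan, Cyp305a1 and Cyp303a1 were lower on LPHC in males. Cyp304a1 was counted as lower too, but passed the male filter through HPLC alone. In females none of the 3 was lower by limma, edgeR, DESeq2 or an unadjusted p under 0.05. Among all genes limma called 29.6% lower in males and 14.8% in females. Cyp304a1, for which no role is given here, had values of 107, 60.1, 70.2, 83.4 and 96.6 on male HPLC and 4.38, 5.58, 6.61, 1.51 and 4.03 on male LPHC. The LPHC values rest on 2 to 6 reads a library and the HPLC values on 64 to 112, and all LPHC values lay below the lowest HPLC value. The gene passed the filter through HPLC alone, so its fitted log2 difference of -4.02 is given as a description. In females Cyp304a1 was at 17.8 to 59.6 on HPLC and 39.1 to 49.9 on LPHC, and the groups overlapped (log2 0.51 ± 0.28, limma, adjusted p = 0.18).

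Cyp305a1 had values of 2277 to 3562 on male HPLC and 706 to 836 on male LPHC, which did not overlap, and its log2 difference was -1.95 ± 0.11 (limma, adjusted p = 1.6e-09). In females its difference was 0.18 ± 0.09 (limma, adjusted p = 0.15). Cyp303a1, required for sensory bristles and for adult emergence, went in opposite directions. Its male values were 129, 126, 144, 121 and 154 on HPLC and 94.8, 124, 81.5, 118 and 82.3 on LPHC, and its female values were 36.2, 61.8, 69.2, 63.3 and 50.5 on HPLC and 121, 98.5, 141, 85.04 and 91.4 on LPHC. The male groups overlapped through LPHC replicate 2, while every female LPHC library was above every HPLC library. The log2 differences were -0.44 ± 0.13 in males (limma, adjusted p = 0.012), a call that was lost with libraries scaled to the same total or upper quartile, and 0.93 ± 0.19 in females (limma, adjusted p = 0.0013). The span of Cyp303a1 overlaps that of heix on the other strand. heix went the same ways, from 494 to 383 in males and from 240 to 298 in females (log2 -0.37 and 0.31, limma, adjusted p = 0.00062 and 0.048). Without a stated strand setting, part of the Cyp303a1 reads may belong to heix, which was not tested.

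The CYP3 clan held the most abundant genes in males, where 27 of 34 tested genes were lower and 2 higher with a median log2 difference of -0.90. In females 12 of 34 were lower and 4 higher, with a median of -0.11. These counts and those by family below stand against 29.6% of all genes lower and 27.6% higher in males, and 14.8% and 16.7% in females. By family, 16 of 21 tested Cyp6 genes, 5 of 5 Cyp9 genes, 3 of 4 Cyp28 genes and 2 of 2 Cyp309 genes were lower in males, and 10, 1, 1 and 0 of them in females, the Cyp309 count being 0 also by edgeR, DESeq2 and an unadjusted limma p under 0.05.

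Cyp6g1, whose overproduction gives resistance to DDT and other insecticides, had values of 29556, 27245, 30412, 30707 and 30165 on male HPLC and 1882, 2826, 2049, 2907 and 1972 on male LPHC. In females Cyp6g1 stood at 46420, 43276, 48500, 33149 and 48638 on HPLC and at 16639, 17218, 17185, 19074 and 17984 on LPHC. In both sexes the diets did not overlap, and female HPLC replicate 4 was the lowest of its group. The means differed 12.7-fold in males (log2 -3.69 ± 0.11, limma, adjusted p = 3.7e-12) and 2.50-fold in females (log2 -1.31 ± 0.10, limma, adjusted p = 1.8e-07).

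Cyp6w1 was measured at 24110 to 29614 on male HPLC and at 1598, 3277, 1493, 3198 and 1754 on male LPHC, where replicates 2 and 4 were the highest as for Cyp6g1. The fat body markers took 0.169% and 0.230% of reads in these 2 libraries and 0.130%, 0.167% and 0.185% in the other 3. The log2 difference of Cyp6w1 was -3.65 ± 0.20 in males (limma, adjusted p = 1.7e-09) and -1.10 ± 0.11 in females (limma, adjusted p = 1.3e-06), where 47631 to 65178 on HPLC stood against 21942 to 29360 on LPHC without overlap. Cyp6d5 fell from 24069 to 32943 on male HPLC to 2586 to 4008 on male LPHC (log2 -3.22 ± 0.12, limma, adjusted p = 2.6e-11). In females the Cyp6d5 groups overlapped, at 26388 to 46130 and 25742 to 33593, and the difference of -0.44 ± 0.13 (limma, adjusted p = 0.022) was no longer called at the same total, with the replicate number as a block, or without HPLC replicate 2 or 5 or LPHC replicate 1 or 3.

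Among the genes that met the symbol rule, the pair Cyp309a1 and Cyp309a2 showed the largest male falls, and neither was called in females. Cyp309a1 stood at 7712, 6866, 7105, 7798 and 6644 on male HPLC and at 365, 417, 223, 368 and 245 on male LPHC. Cyp309a2 stood at 2869 to 3304 on male HPLC and at 141 to 210 on male LPHC. For both genes every LPHC library lay far below every HPLC library. The means differed 22.3-fold and 18.5-fold, with log2 differences of -4.52 ± 0.15 for Cyp309a1 (limma, adjusted p = 6.3e-12) and -4.22 ± 0.10 for Cyp309a2 (limma, adjusted p = 3.9e-13). In females Cyp309a1 was at 4908 to 8154 on HPLC and 6947 to 7882 on LPHC, and its difference of 0.14 ± 0.11 was not called (limma, adjusted p = 0.39). That of Cyp309a2 was -0.15 ± 0.10 (limma, adjusted p = 0.26) and turned to 0.01 with libraries scaled to the same total.

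**Figure D3:**
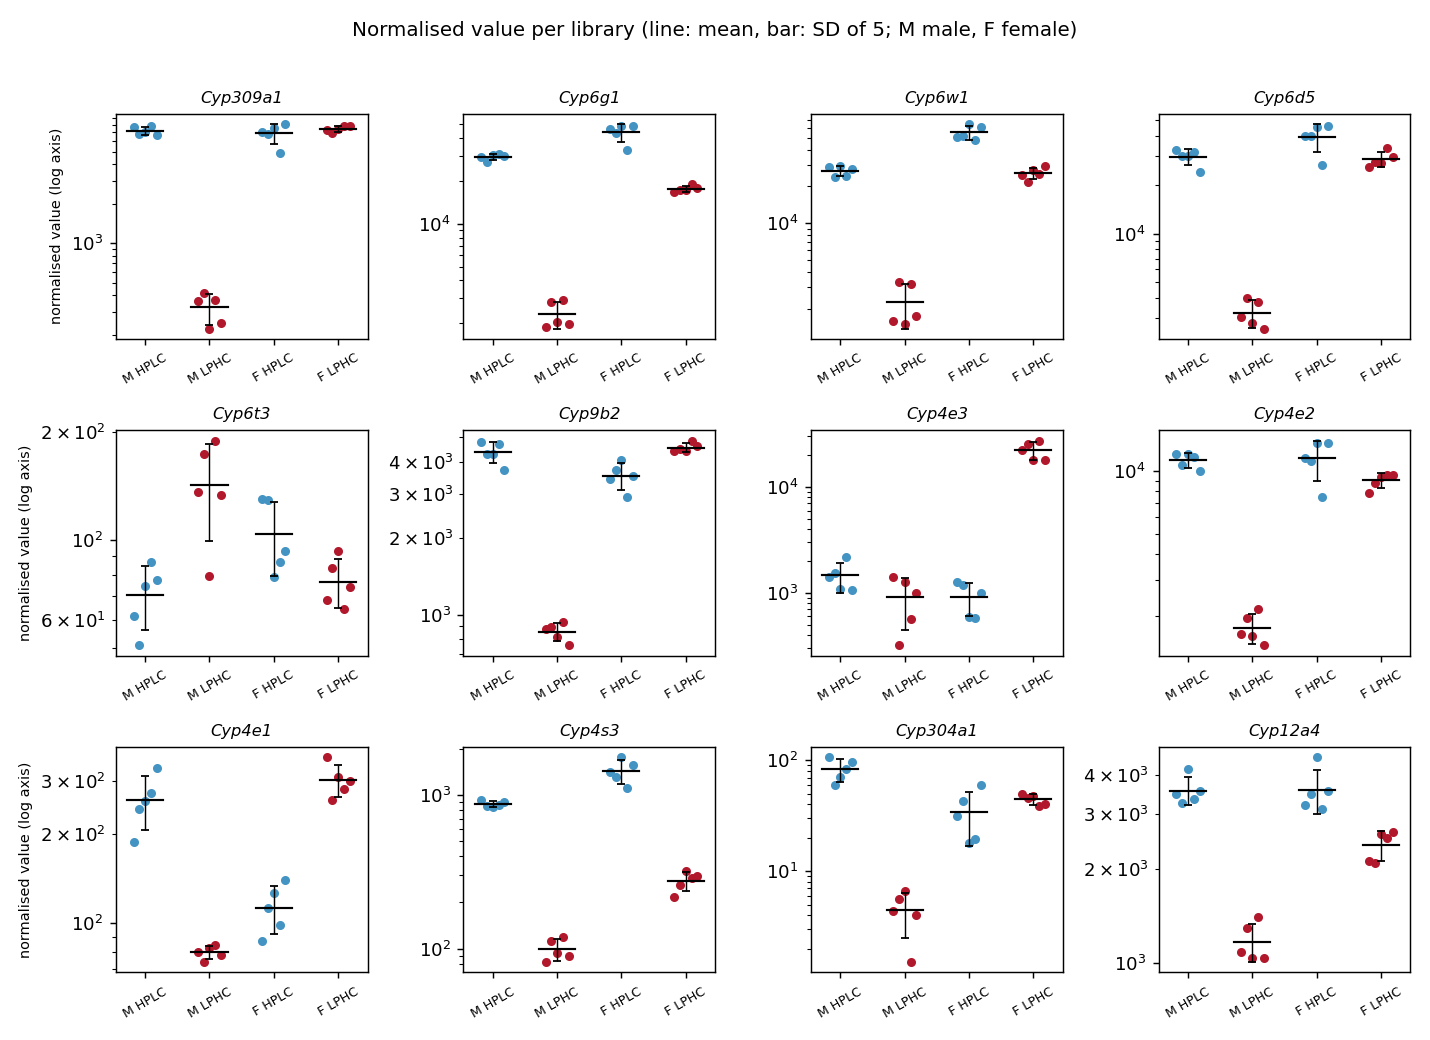
Normalised value of 12 P450 genes in every library on a log axis, by sex and diet (M male, F female), with the mean as a line and the SD of 5 libraries as a bar. Cyp309a1 is low in male LPHC alone, Cyp6g1 and Cyp4s3 are lower on LPHC in both sexes, and Cyp4e3 is high in female LPHC alone, at 17928 to 27446. Levels of the 2 sexes were scaled in separate tables.

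Cyp6a8, Cyp28d1, Cyp6a2, Cyp6t1 and Cyp9h1, also of the CYP3 clan, were lower on LPHC in both sexes. Cyp6a8, which hydroxylates lauric acid, was at 7115 to 8812 on male HPLC and 546 to 1111 on male LPHC (log2 -3.38 ± 0.17, limma, adjusted p = 6.8e-10), and at 1594 to 2549 and 1112 to 1501 in females (log2 -0.74 ± 0.12, limma, adjusted p = 0.00026). Cyp28d1, induced by and active against nicotine, was at 10473 to 13234 and 1541 to 2416 in males (log2 -2.66 ± 0.12) and at 14408 to 20709 and 8196 to 9218 in females (log2 -1.02 ± 0.09). Neither gene overlapped between diets in either sex. Cyp6a2, linked to DDT metabolism, had log2 differences of -2.01 ± 0.09 in males and -1.29 ± 0.13 in females, and Cyp6t1 of -2.88 ± 0.11 and -1.12 ± 0.14 (limma, all 4 adjusted p of 2.0e-05 or less). Cyp9h1 differed by -1.48 ± 0.18 and -1.45 ± 0.15, and a difference between sexes was not detected for it (-0.04 ± 0.25, limma, adjusted p = 0.91).

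The Cyp6a genes were not uniform. In males 9 of 11 tested were lower, against 29.6% of all genes. Among them was Cyp6a22 (log2 -2.31 ± 0.09, limma, adjusted p = 2.8e-11), which was at 2771 ± 345 on HPLC and 2703 ± 134 on LPHC in females. Cyp6a17, needed for normal temperature preference, differed by -0.27 ± 0.08 in males (limma, adjusted p = 0.0070) and -0.29 ± 0.09 in females (limma, adjusted p = 0.032). The male call was lost at the same total and the same upper quartile, and the female call under both of these scalings, with the replicate block and without any 1 of 6 libraries. Its near-identical neighbour Cyp6a23 differed by -0.24 ± 0.08 in males (limma, adjusted p = 0.016), but by 0.01 at the same total, and reads of the 2 genes may be split between them. Cyp6a20, known for its effect on male aggression, was at 1603 to 2035 on male HPLC and 1713 to 2297 on male LPHC, and the difference of 0.16 ± 0.08 was not called (limma, adjusted p = 0.11). It was called as higher at the same total (0.41, limma, adjusted p = 0.00050) and at the same upper quartile. In females Cyp6a20 differed by -0.10 ± 0.09, or 0.06 at the same total.

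Only 2 CYP3 genes were higher on LPHC in males. Cyp6t3, which acts in ecdysteroid production in the larval prothoracic gland, had values of 61.5, 50.9, 74.6, 87.1 and 77.5 on HPLC and 136, 173, 79.3, 189 and 133 on LPHC. Replicate 3 of LPHC lay within the HPLC range and the other 4 above it, and the log2 difference was 0.97 ± 0.21 (limma, adjusted p = 0.0014). In females Cyp6t3 was at 104 ± 24.2 on HPLC and 76.6 ± 11.8 on LPHC, which was not called (limma, adjusted p = 0.065). Cyp6g2, expressed in the juvenile hormone-producing corpus allatum of larvae, lay at 31.7 to 60.8 on male HPLC and 56.9 to 100.2 on male LPHC (log2 0.76). Its gene span overlaps that of Cyp6g1 on the other strand, and without a stated strand setting reads of the overlap cannot be assigned to one of them.

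In females the CYP3 genes that were higher on LPHC were Cyp6d2, Cyp6d4, Cyp9b2 and Cyp9f3. Cyp6d2, linked to resistance against the alkaloid camptothecin, had values of 171, 167, 220, 129 and 170 on HPLC and 414, 461, 493, 394 and 443 on LPHC. The groups did not overlap and differed by 1.37 ± 0.12 (limma, adjusted p = 5.1e-07). In males Cyp6d2 was at 91.9, 243, 80.4, 273 and 125 on LPHC, with replicates 2 and 4 above and replicates 1, 3 and 5 below all HPLC values of 135 to 191, and its sign depended on the scaling. Cyp9b2 was at 2898 to 4055 and 4399 to 4852 in females (log2 0.38 ± 0.08, limma, adjusted p = 0.0029), and fell from 3720 to 4793 to 755 to 934 in males (log2 -2.35 ± 0.08, limma, adjusted p = 5.8e-12). Cyp9f3 differed by 0.48 ± 0.08 in females and Cyp6d4 by 0.40 ± 0.13, the latter called with an adjusted p of 0.033 (limma) that was lost without HPLC replicate 1, 2 or 4 or LPHC replicate 2, 3 or 5.

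Of the CYP4 clan, 17 of 26 tested genes were lower and 1 higher in males, with a median of -0.83, and 8 of 24 were lower and 4 higher in females, with a median of -0.11. Over all genes the shares were 29.6% lower and 27.6% higher in males, and 14.8% and 16.7% in females. The clan includes fatty acid hydroxylases and the hydrocarbon-forming Cyp4g genes. Its largest female change was that of Cyp4e3. On female HPLC Cyp4e3 had values of 1264, 1178, 595, 577 and 999, and on female LPHC of 22245, 25599, 17928, 27446 and 18053. Every LPHC library exceeded every HPLC library by more than the whole HPLC range. The log2 difference was 4.65 ± 0.21 (limma, adjusted p = 8.0e-10), from a mean of 922 ± 322 to one of 22254 ± 4316 (SD, n = 5). Its share of all CYP4 clan reads went from 3.94% ± 1.23 to 56.5% ± 5.23 and its share of all P450 reads from 0.408% ± 0.138 to 13.7% ± 2.41.

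In males Cyp4e3 was at 1415, 1550, 1084, 2206 and 1055 on HPLC and at 1418, 319, 1271, 568 and 997 on LPHC. The groups overlapped, and LPHC replicates 2 and 4 were the lowest, the reverse of their place for Cyp6w1. The difference of -0.82 ± 0.34 was not called (limma, adjusted p = 0.056), but was -1.02 without LPHC replicate 1 (limma, adjusted p = 0.022) and -0.98 without LPHC replicate 3 (limma, adjusted p = 0.028). No measured gene overlaps Cyp4e3 in the annotation used here, and no gene on its strand lies within 5000 bases upstream.

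The other genes of the Cyp4e subfamily differed from it. Cyp4e1 was at 187, 241, 258, 274 and 333 on male HPLC and at 80.3, 73.9, 82.6, 84.4 and 78.3 on male LPHC, and at 87.1, 112, 126, 98.5 and 140 on female HPLC and 260 to 361 on female LPHC. The diets did not overlap in either sex, but in opposite order. The log2 differences were -1.66 ± 0.13 in males (limma, adjusted p = 6.9e-08) and 1.43 ± 0.13 in females (limma, adjusted p = 7.9e-07). Cyp4e2, the most abundant CYP4 gene per kilobase in males, was at 10037 to 12177 on male HPLC and 1443 to 2161 on male LPHC (log2 -2.70 ± 0.10, limma, adjusted p = 2.1e-11). In females Cyp4e2 was at 7508 to 13759 and 7883 to 9627, and was not called (log2 -0.32 ± 0.14, limma, adjusted p = 0.091).

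Cyp4s3 fell in both sexes. It stood at 919, 847, 839, 858 and 898 on male HPLC and at 81.7, 113, 93.7, 120 and 89.6 on male LPHC. In females it stood at 1407, 1299, 1753, 1115 and 1574 on HPLC and at 216, 260, 319, 290 and 296 on LPHC. Neither sex showed any overlap, and its female fall was the largest among the members tested. The log2 differences were -3.13 ± 0.10 in males (limma, adjusted p = 4.9e-12) and -2.36 ± 0.12 in females (limma, adjusted p = 4.0e-09).

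A pair of CYP4 genes was read mostly in males. Cyp4d21, also called sxe1, a gene known to be male-enriched in head fat body and to affect mating, was at 36.9 to 59.5 RPM (reads relative to the library's recovered reads, on the usual scale) on male HPLC and 9.99 to 14.6 on male LPHC, but 0 to 0.28 in the female libraries. On the normalised scale its male values were 956 to 1554 and 225 to 317.1, which did not overlap (log2 -2.22 ± 0.13, limma, adjusted p = 2.6e-09). Cyp313a1 was at 209 to 319 RPM on male HPLC, 78.3 to 105 on male LPHC and 16.9 to 32.1 in females. It was lower on LPHC in males (log2 -1.72 ± 0.11, limma, adjusted p = 5.6e-09), while in females the difference was -0.08 ± 0.15 (limma, adjusted p = 0.74), or 0.09 at the same total. The tables of the sexes were scaled separately, so RPM are given here and levels were not tested between sexes.

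Of the Cyp4g genes, Cyp4g15 was lower on LPHC in males and Cyp4g1 was nearly absent from the reads. Cyp4g1, the decarbonylase that makes cuticular hydrocarbons in oenocytes, was at 0.6 RPM or less in 19 of 20 libraries, and at 6.33 RPM in male LPHC replicate 2. It was not called in males (log2 1.09 ± 0.88, limma, adjusted p = 0.31) and was below the filter in females. Its paralogue Cyp4g15, known from the brain, was at 910 ± 232 and 632 ± 65.1 in males (log2 -0.50 ± 0.14, limma, adjusted p = 0.0074, not called at the same total) and at 504 ± 137 and 508 ± 54.9 in females.

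Smaller CYP4 members also parted from each other. Cyp4ac1 was lower in both sexes (log2 -1.26 ± 0.13 and -1.06 ± 0.16) and Cyp4ac2 in males (-1.42 ± 0.16), while their neighbour Cyp4ac3 was higher in males, at 280 to 344 on HPLC and 456 to 602 on LPHC (log2 0.66), without overlap. Cyp311a1, which acts on membrane phospholipids in the larval midgut, was at 1110 ± 85.1 and 598 ± 85.8 in males and 623 ± 74.4 and 819 ± 59.0 in females. The groups were separate in each sex, with log2 differences of -0.90 ± 0.09 (limma, adjusted p = 1.4e-06) and 0.40 ± 0.09 (limma, adjusted p = 0.0032). Cyp316a1 went the same ways at low levels, from 18.1 ± 8.14 to 7.00 ± 3.72 in males and from 14.4 ± 2.37 to 35.3 ± 4.89 in females, and its male call was lost without HPLC replicate 2. Cyp312a1 was lower in females (-0.88 ± 0.18, limma, adjusted p = 0.0015) and had a male difference of -0.01 ± 0.19.

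Of the 7 mitochondrial genes, 4 were lower in males and 3 in females, and none was higher by limma, edgeR or DESeq2 (at an unadjusted limma p under 0.05, 0 in males and 1 in females, Cyp301a1). The limma shares over all genes were 29.6% lower and 27.6% higher in males, and 14.8% and 16.7% in females. Cyp12a4, whose overproduction gives resistance to the insecticide lufenuron, was at 3475, 3261, 4209, 3368 and 3557 on male HPLC and 1083, 1291, 1038, 1398 and 1035 on male LPHC. In females it was at 3128 to 4574 and 2095 to 2629, and in both sexes the groups were separate. The log2 differences were -1.62 ± 0.09 (limma, adjusted p = 2.5e-09) and -0.58 ± 0.11 (limma, adjusted p = 0.00059). Cyp12a5 and Cyp12e1 had larger falls in females, with -1.20 ± 0.12 and -1.01 ± 0.12, than in males, with -0.53 ± 0.13 and -0.49 ± 0.08, and the male call of Cyp12a5 was lost at the same total.

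Cyp12c1 was lower in males. It was at 855 to 1047 on male HPLC and 283, 411, 214, 482 and 232 on male LPHC (log2 -1.60 ± 0.19, limma, adjusted p = 5.3e-06), with replicates 2 and 4 again the highest, and its female difference was 0.19 ± 0.11 (limma, adjusted p = 0.20). Cyp301a1, which acts in adult cuticle formation, Cyp49a1 and Cyp12b2 were not called in either sex, with differences of -0.23 ± 0.13, -0.02 ± 0.15 and -0.11 ± 0.05 in males and 0.30 ± 0.12, 0.21 ± 0.19 and 0.06 ± 0.09 in females. The male signs of these 3 genes turned at the same total, where Cyp12b2 was called as higher (0.14, limma, adjusted p = 0.025).

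The difference between diets itself differed between the sexes for 49 of 71 members tested (limma, male difference minus female difference), or 69.0%, against 51.3% of all genes. Of these 71 members 67 passed the filter in both sexes, and 48 of the 67 were called. The other 4, Cyp4ad1, Cyp4ae1, Cyp4d21 and Cyp4g1, were below it in 1 sex, and of them Cyp4ad1 was called (-1.66, limma, adjusted p = 0.0041) although its male values were 1.39 to 10.02. The male difference was below the female one for 43 members and above it for 6, against 29.2% and 22.1% of all genes. The 6 were Cyp6t3, Cyp6g2, Cyp4ac3, Cyp12a5, Cyp12e1 and Cyp312a1. The largest differences were those of Cyp4e3 (-5.46 ± 0.45), Cyp309a1 (-4.65 ± 0.20), Cyp309a2 (-4.06 ± 0.15) and Cyp4e1 (-3.09 ± 0.19), all with a limma adjusted p of 7.9e-10 or less. That of Cyp304a1 was fitted as -4.53, on the few male LPHC reads given above, and is counted among the 43.

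Among the 67 members tested in both sexes, 22 were lower on LPHC in both and 7 were lower in males and higher in females, against 7.23% and 6.73% of all 9766 genes tested in both. By limma no member was higher in both sexes, against 2.5% of all genes, and none was higher in males and lower in females, against 4.09%. At an unadjusted limma p under 0.05 each count was 1, Cyp4ac3 as higher in both and Cyp6t3 as opposite, edgeR called 1 and 0, and DESeq2 called 1 and 1. The 7 were Cyp303a1, Cyp311a1, Cyp316a1, Cyp4e1, Cyp6d4, Cyp9b2 and Cyp9f3, of which the male calls of Cyp303a1 and Cyp9f3 were lost at the same total and the same upper quartile. The male call of Cyp316a1 was lost without HPLC replicate 2, and the female call of Cyp6d4 without any 1 of 6 libraries. The 22 included Cyp6g1, Cyp6w1, Cyp6d5, Cyp6a2, Cyp6a8, Cyp28d1, Cyp4s3 and Cyp12a4. As a description, Pearson's r between the male and female differences was 0.246 over the 67 members and 0.0326 over all genes. These are correlations across genes, which are not independent replicates.

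**Figure D4:**
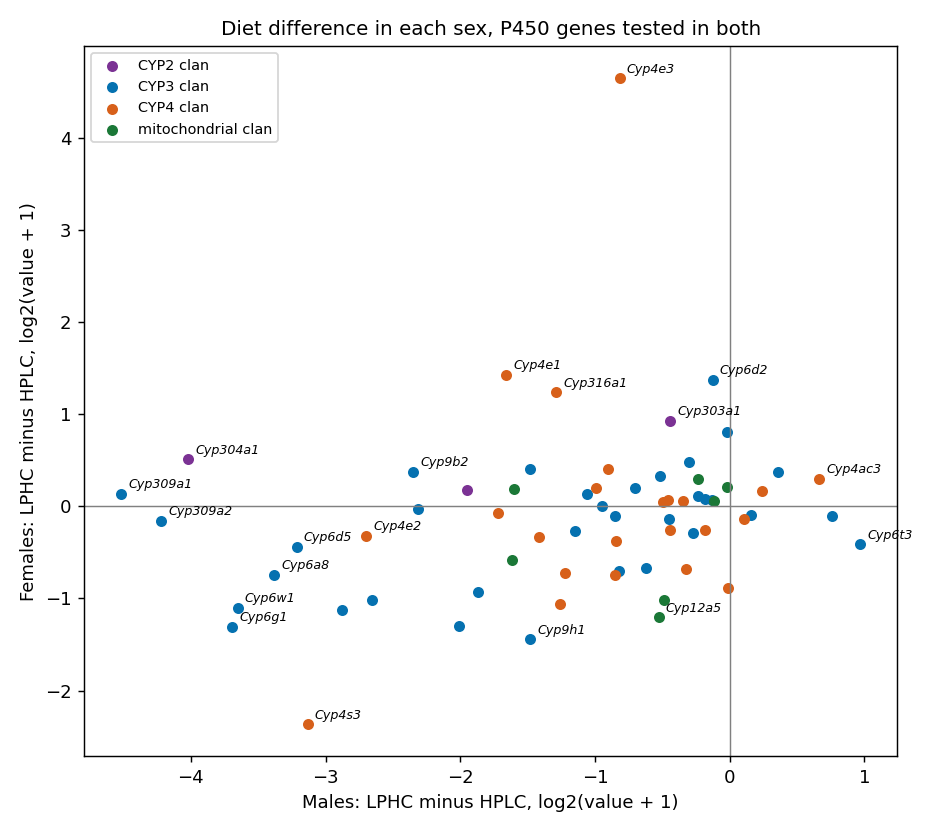
Log2 difference between diets (LPHC minus HPLC, on log2(value + 1)) in females against that in males for the 67 P450 genes tested in both, coloured by clan. Cyp309a1 and Cyp309a2 lie at the far left near 0 in females, Cyp4s3 is low in both sexes, and Cyp4e3 lies at the top with a female difference of 4.65 and a male one of -0.82.

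Neighbouring P450 genes did not always move together. In the reference annotation 38 members stood in 13 runs of adjacent members, and the largest run held 9 genes, Cyp317a1 and 8 Cyp6a genes. Of these 9, 7 were lower in males and 4 in females, and none was higher by limma, edgeR or DESeq2 (at an unadjusted limma p under 0.05, 0 in males and 1 in females). Among all genes limma called 29.6% lower and 27.6% higher in males, and 14.8% and 16.7% in females. In other runs the calls of males parted, as for Cyp6g1 (log2 -3.69) beside Cyp6g2 (0.76) and Cyp6t3 (0.97), and for Cyp4ac1 (-1.26) and Cyp4ac2 (-1.42) beside Cyp4ac3 (0.66). The spans of 32 members overlap another measured gene, among them Cyp28d1, Cyp303a1, Cyp313a1, Cyp4s3, Cyp6d5, Cyp4e1 and Cyp304a1. Since the strand setting of the counting is not given in the sources used here, part of their reads may belong to those genes.

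Genes listed as redox partners of the P450 enzymes went both ways in males. Of 7 genes tested, 5 were lower and 2, dare and Fdx1, higher in males, against 29.6% and 27.6% of all genes, with a median log2 difference of -0.97. In females 4 were lower, against 14.8% of all genes, and none was higher by limma, edgeR, DESeq2 or an unadjusted p under 0.05, with a median of -0.33. The smallest male p of the list was that of CG5946, at 12591 to 14049 on HPLC and 4962 to 5781 on LPHC (log2 -1.29 ± 0.06, limma, adjusted p = 1.2e-10), and in females it differed by -0.33 ± 0.08 (limma, adjusted p = 0.0041). Cpr, the reductase that passes electrons from NADPH to microsomal P450 enzymes, was at 7000 to 9080 on male HPLC and 3782 to 4990 on male LPHC (log2 -0.97 ± 0.08, limma, adjusted p = 2.3e-07). In females its difference of 0.20 was not called. Cyt-b5-r, which encodes a cytochrome b5-related protein, fell by 2.38 in males and by 0.38 in females on the log2 scale. It is counted in the list, but no role for it as a partner of P450 enzymes is shown here. The cytochrome b5 gene Cyt-b5 fell by 1.15 in males. Of the mitochondrial partners, the adrenodoxin reductase gene dare was higher in males (0.76 ± 0.09, limma, adjusted p = 5.1e-06) and lower in females (-0.59 ± 0.16, limma, adjusted p = 0.010), and the ferredoxin gene Fdx2 was lower in both (-0.79 ± 0.07 and -0.36 ± 0.08).

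Genes of haem synthesis and breakdown, which supply and remove the P450 cofactor, were called at shares near those of all genes, and no call reached 2-fold. Of 9 tested in males, 66.7% were called against 57.2% of all genes, 2 as higher and 4 as lower, with Ppox the largest fall at -0.48 ± 0.08 and Alas, the entry step, at 0.22 ± 0.05. Of 10 tested in females, 40.0% were called against 31.5% of all genes. Of these 3 were higher, namely Coprox, FeCH and Urod at 0.38 to 0.41, and 1 was lower, Ho at -0.29 ± 0.10. Of 7 genes listed as regulators of the xenobiotic response, 2 (28.6%) were lower in males, near the 29.6% of all genes. None was higher by limma, against 27.6% of all genes, while 1, maf-S, was higher by edgeR or at an unadjusted p under 0.05 and 0 by DESeq2. The 2 lower genes were cnc, the Nrf2 homologue that activates detoxification genes, at -1.10 ± 0.06 (limma, adjusted p = 1.7e-09), and its inhibitor Keap1 at -1.36 ± 0.08 (limma, adjusted p = 5.0e-09). In females 1 of the 7 (14.3%) was called as higher, near the 16.7% of all genes. It was Hr38 (0.82 ± 0.22, limma, adjusted p = 0.0091), for which no role in the xenobiotic response is shown here.

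Of 7 tested genes on the path to the hydrocarbons that Cyp4g1 forms, 6 were lower in males, against 29.6% of all genes. They were led by FASN2 (-2.92 ± 0.22), FASN1 (-2.44 ± 0.12), ACC (-2.26 ± 0.10) and Desat1 (-2.11 ± 0.09). In females 3 were higher, against 16.7% of all genes, namely FASN2 (1.29 ± 0.11), Desat2 (1.16 ± 0.21) and FASN3 (0.44 ± 0.16). Another 3 were lower, against 14.8% of all genes, namely ACC (-0.89 ± 0.12), Desat1 (-0.55 ± 0.10) and FASN1 (-0.43 ± 0.12). FASN1 is also a fat body marker in the counts above. Of the P450 and other genes of ecdysteroid synthesis that carry word symbols, 1 of 4 tested in males was higher (25%), against 27.6% of all genes. It was shd, which makes the active hormone 20-hydroxyecdysone, at 23.1 to 46.1 on male HPLC and 172 to 185 on male LPHC (log2 2.38 ± 0.16, limma, adjusted p = 1.4e-08). The male differences of nvd, phm and sad were not called. In females 2 of 3 tested were higher, against 16.7% of all genes, namely sad (0.71 ± 0.22, limma, adjusted p = 0.020) and shd (0.69 ± 0.21, limma, adjusted p = 0.023). The remaining P450 symbols outside the naming rule, Cyp12d1-d and Cyp12d1-p, are near-identical copies whose separate values are uncertain. Their log2 differences were -4.88 and -4.99 in males and -1.64 and -1.51 in females.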

How the data were processed

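RNA of 20 libraries labelled as brain was sequenced, 5 per sex and diet, and grouped by the labels. The aligner was HISAT2, according to the submitters' processing notes. A normalised signal for each gene was deposited by the authors, made by dividing each library's counts by its size factor, in 1 table per sex. DESeq2 normalisation and removal of long non-coding RNAs are stated by the labels of the deposited tables alone. Counter, build, annotation and strand setting were not given in the sources used here, and coordinates are left out. Values were whole multiples of 1 read in 100% of cases (tolerance 0.01), and 0 per-sample columns were unused. No pair of libraries agreed within sampling noise (smallest chi-square per degree of freedom 7.55).

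Members and gene lists were chosen with earlier results of these data known, and 1 gene of the same symbol form is not reported here. The test was limma 3.58.1 (R 4.3.3) using its intensity trend, 2-sided, applied to log2(value + 1) of all genes that reached 10 in 5 or more libraries; p-values were adjusted after Benjamini-Hochberg and called under 0.05. This scale understates changes of low genes. Sexes were compared in 1 fit as the male minus the female difference, which removes a scale factor of a table. The fit was tested on simulated data. Named genes were, per sex and clan, up to 6 with the largest called difference and a mean of 20 or more, the 3 highest per coding kilobase, members called in opposite directions or with the smallest p between sexes, and a list of known roles. Cyp6g2 and Cyp4ac3 were named after their values were seen. Of partner lists up to 4 genes per sex were named by smallest p, and further ones to complete a count. Coding length and neighbours came from the BDGP6 annotation of Ensembl. Alternatives were other pseudocounts, filters, scalings, robust moderation, a replicate block, leaving out 1 library, and the count tests of edgeR 4.0.16 and DESeq2 1.42.0. Plots used Python 3.11.15 and matplotlib 3.10.9.

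Same-numbered libraries correlated at -0.129 to 0.00282 in males and -0.228 to 0.0478 in females, so the numbers were not taken to pair samples.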

Additional observations from a re-analysis of the deposited data

Results flagged for a closer look

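In 9 of 172 groups of 5 libraries of a named member 1 library stood apart from the other 4, and chance alone flags about 1 group in 20. Cyp4g1 was at 142 in male LPHC replicate 2, where the other LPHC libraries were at 1.10 to 11.7, and at 13.5 in female HPLC replicate 2. Female HPLC replicate 3 was the highest of its group for Cyp12b2 at 827, Cyp12c1 at 1212 and Cyp6t1 at 1261. Cyp4ac2 was lowest in female HPLC replicate 4, at 431, and in female LPHC replicate 1, at 362. Cyp6a17 was highest in male HPLC replicate 3, at 2621, and Cyp6a23 in male LPHC replicate 2, at 831.

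The difference between diets differed between the sexes for 34 of 43 named members (limma, male minus female, log2). Most often the male value lay below the female one, by the widest margin for Cyp4e3 (-5.46), Cyp309a1 (-4.65), Cyp304a1 (-4.53), Cyp309a2 (-4.06) and Cyp4e1 (-3.09). The value of Cyp304a1 rests on 2 to 6 reads in each male LPHC library. Values between -3 and -2 were found for Cyp6d5 (-2.78), Cyp9b2 (-2.73), Cyp6a8 (-2.64), Cyp6w1 (-2.55), Cyp316a1 (-2.53), Cyp6g1 (-2.39), Cyp4e2 (-2.38), Cyp6a22 (-2.28) and Cyp305a1 (-2.13). Values between -2 and -1 were found for Cyp6d4 (-1.88), Cyp12c1 (-1.79), Cyp6t1 (-1.76), Cyp313a1 (-1.64), Cyp28d1 (-1.64), Cyp6d2 (-1.50), Cyp303a1 (-1.37), Cyp311a1 (-1.30), Cyp4ac2 (-1.09) and Cyp12a4 (-1.03). Smaller values were those of Cyp9f3 (-0.78), Cyp4s3 (-0.77), Cyp6a2 (-0.71), Cyp4g15 (-0.54), Cyp301a1 (-0.53) and Cyp6a23 (-0.34). The call of Cyp4g15 was lost under 19 alternatives, among them edgeR, DESeq2 and both other scalings, and those of Cyp301a1 and Cyp6a23 at the same upper quartile. The male value was above the female one for Cyp6t3 (1.38), Cyp312a1 (0.87), Cyp12a5 (0.68) and Cyp12e1 (0.52).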

How the results depend on the processing

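With other pseudocounts, filters and robust moderation, each count of members called kept within 1.5 times its value. With the replicate number as a block, whose pairing the data do not bear out, 4 male members were higher and 51 lower, 9 female members higher and 20 lower, and 45 differed between sexes; the female calls of Cyp6a17 and Cyp6d5 were lost. Male members higher numbered 8 with equal totals and 6 with equal upper quartiles, and female members higher 21 at the same total, since these scalings shift all genes. edgeR and DESeq2 shared all 54 male and all 32 female calls with the main test, in the same direction. With 1 library left out, 3 to 5 male members were higher (5 without LPHC replicate 5) and 50 to 52 lower, 8 to 13 female members higher and 19 to 26 lower, and 44 to 48 differed between sexes. The median difference of male members was -0.58 (same total) and -0.67 (same upper quartile), and that of female members was 0.08 at the same total and -0.03 with edgeR.

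Signs turned for named members near 0, nearly all of them not called. At the same total the male differences became 0.136 for Cyp12b2, 0.0147 for Cyp301a1, 0.230 for Cyp312a1, 0.229 for Cyp49a1, 0.0122 for Cyp6a23, which had been called as lower, and 0.123 for Cyp6d2. The female ones became 0.00850 for Cyp309a2, 0.0873 for Cyp313a1, 0.0634 for Cyp6a20 and 0.135 for Cyp6a22. At the same upper quartile the male values were 0.0522 for Cyp12b2, 0.149 for Cyp312a1, 0.147 for Cyp49a1 and 0.0397 for Cyp6d2. With edgeR and DESeq2 they were 0.0433 and 0.0218 for Cyp49a1 and 0.0684 and 0.0411 for Cyp6d2. With 1 library left out, these differences ranged from -0.125 to 0.0768 for Cyp312a1, -0.0933 to 0.0814 for Cyp49a1 and -0.355 to 0.0821 for Cyp6d2 in males, and from -0.200 to 0.0195 for Cyp313a1, -0.0814 to 0.184 for Cyp4g15 and -0.104 to 0.00790 for Cyp6a22 in females. The causes of other changes were not tested. Depth limits Cyp304a1 in male LPHC, Cyp316a1 and Cyp4g1, which rest on few reads.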
